A study of Mus musculus with 6 samples.

Results

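Usp7 and 7 genes that lie near it on mouse chromosome 16 were followed in regulatory T cells (Treg), to see how the targeted transcript and its neighbourhood read in cells from mice with a conditional Usp7 allele. The members are Usp7, Carhsp1, Pmm2, Abat, Emp2, Nubp1, Clec16a and Litaf, chosen by name as the target and nearby genes. Every probe set annotated with a member as its only symbol was used, which gave 17 of 22626 gene probe sets, for 8 of 12393 genes. A further probe set annotated with both Litaf and Gm9861 was left out by that rule.

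The arrays fall into 2 groups of 3 samples each, every sample being CD4+YFP+ Treg sorted by flow cytometry, on a C57BL/6 background. One group carries USP7 titles; the series text describes its mice as fl-Usp7/Foxp3cre, whereas its genotype field reads fl-HDAC11/Foxp3cre. The control group carries B6_WT titles and the genotype Foxp3cre. Both groups therefore carry Foxp3cre, a Cre recombinase driven by Foxp3, so deletion is aimed at cells that have expressed Foxp3. The series text calls the samples independent but names no animals; the p-values therefore reflect only how these samples spread, which may be technical. Groups are called USP7-titled and control after their titles.

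Treg are CD4 T cells that hold immune responses in check and need Foxp3, a transcription factor, to do so. The USP7 protein strips ubiquitin chains off its targets, a deubiquitinase activity that can save them from degradation; p53, its ligase MDM2, and Foxp3 are known substrates. A conditional allele is made by placing recombination sites in a gene through homologous recombination, so the genes beside the target come from the same altered chromosome. The neighbours themselves have unrelated jobs, in RNA binding, endosomes, sugar and iron-sulphur chemistry.

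Some facts touch every comparison below. Array medians lay between 7.91 and 7.96 on the log2 scale. Pearson's r across gene probe sets was 0.992 to 0.993 among USP7-titled arrays, 0.995 to 0.996 among controls and 0.970 to 0.975 between groups. All 8 T cell markers were bright in both groups; 0 rose and 4 fell, by at most 0.30 for Cd28, whereas scaled to spikes 1 rose and 0 fell, and Cd4 averaged 12.83 in USP7-titled and 12.82 in control arrays. Foxp3 itself read 6.85, 7.29 and 6.87 in USP7-titled arrays, against 12.83, 13.13 and 12.99 in control arrays. The other 6 of 7 Treg markers stayed bright and differed by -0.36 to -0.09, with Il2ra at 12.68 in USP7-titled and 12.85 in control arrays and Ctla4 at 12.17 in USP7-titled and 12.53 in control arrays; of all 7, 6 fell, and 3 when scaled to spikes. Xist, from the inactive X chromosome, read 4.63 to 5.65 in USP7-titled and 12.43 to 12.55 in control arrays, and the Y-linked Eif2s3y averaged 10.15 in USP7-titled and 4.50 in control arrays; sex and group therefore cannot be told apart. Myeloid markers moved with the groups too: 12 of 19 were higher and 1 lower, with summed linear signals of 5467 to 7118 in USP7-titled and 2014 to 2479 in control arrays. None of these markers has a true zero on an array, and all 19 lay below the median gene in controls. In USP7-titled arrays they ran from Ms4a7, above 15.2% of gene probe sets, to C1qb, above 79.2%.

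In the reference annotation the members run along the chromosome in the order Abat, Pmm2, Carhsp1, Usp7, Emp2, Nubp1, Clec16a and Litaf. Counting only measured genes, Carhsp1 is the neighbour directly before Usp7, Pmm2 stands 2 and Abat 4 places before it, and Emp2, Nubp1, Clec16a and Litaf stand 4, 5, 9 and 15 places after it. From Abat to Litaf the annotation has 24 protein-coding genes, of which 20 were measured; Gm5767, 1810013L24Rik, Tekt5 and Rmi2 were not analysed here. Pmm2 overlaps Tmem186 at its start, and Nubp1 overlaps Tvp23a. Usp7, Carhsp1, Emp2 and Litaf overlap no other annotated gene.

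Promoter windows, 250 bases before to 50 after the transcription start, were in the RefSeq table (GRCm38.p6) for 7 members; Abat has no entry. Those shown are Usp7, whose transcript fell, Carhsp1 and Litaf, which rose the most among the members, and Pmm2, which shares 291 of its 300 bases with a Tmem186 window on the opposite strand. Capitals mark matches on either strand. The GC box was searched as GGGCGG. The CCAAT box was searched by the letters of its name. The ETS motif was searched as CCGGAAGT. The cell cycle homology region (CHR) was searched as TTTGAA. The NRF1 palindrome opens the first run of capitals in the Pmm2 window and a GC box adjoins it; GC boxes overlap each other in Usp7. The windows are chr16:8738293-8738592 on the minus strand for Usp7, chr16:8672104-8672403 on the minus strand for Carhsp1, chr16:10993072-10993371 on the minus strand for Litaf and chr16:8637457-8637756 on the plus strand for Pmm2.
Usp7: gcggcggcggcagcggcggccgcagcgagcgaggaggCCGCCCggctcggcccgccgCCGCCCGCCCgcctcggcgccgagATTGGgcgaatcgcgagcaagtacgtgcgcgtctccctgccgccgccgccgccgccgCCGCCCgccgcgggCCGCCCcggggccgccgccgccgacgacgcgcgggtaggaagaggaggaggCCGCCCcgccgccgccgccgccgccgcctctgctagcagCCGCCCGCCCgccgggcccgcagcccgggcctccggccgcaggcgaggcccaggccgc
Carhsp1: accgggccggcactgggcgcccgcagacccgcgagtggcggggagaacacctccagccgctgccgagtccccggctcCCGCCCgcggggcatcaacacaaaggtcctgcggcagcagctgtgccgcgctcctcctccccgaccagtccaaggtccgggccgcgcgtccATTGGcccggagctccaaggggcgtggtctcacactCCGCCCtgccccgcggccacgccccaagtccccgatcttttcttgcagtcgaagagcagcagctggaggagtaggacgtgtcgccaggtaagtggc
Litaf: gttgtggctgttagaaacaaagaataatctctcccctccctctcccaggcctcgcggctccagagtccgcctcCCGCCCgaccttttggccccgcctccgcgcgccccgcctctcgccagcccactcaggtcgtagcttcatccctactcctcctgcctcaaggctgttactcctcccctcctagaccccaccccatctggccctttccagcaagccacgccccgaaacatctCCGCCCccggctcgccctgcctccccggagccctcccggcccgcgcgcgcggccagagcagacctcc
Pmm2: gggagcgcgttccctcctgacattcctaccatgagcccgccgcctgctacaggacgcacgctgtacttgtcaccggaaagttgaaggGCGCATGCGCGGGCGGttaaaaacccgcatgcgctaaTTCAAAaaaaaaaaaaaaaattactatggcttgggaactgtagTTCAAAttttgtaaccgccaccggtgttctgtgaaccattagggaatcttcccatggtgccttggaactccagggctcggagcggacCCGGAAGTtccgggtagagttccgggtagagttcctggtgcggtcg

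Guanine and cytosine made up 86% of the Usp7 window, 71% of that of Carhsp1, 68.3% of that of Litaf and 54% of that of Pmm2, against a median of 52.7% over 32851 windows. A GC box was present in 6 of the 7 member windows and in 35.7% of all windows; the Usp7 window held 8 of them. The CCAAT box was in 4 of 7 member windows (Usp7, Carhsp1, Nubp1 and Clec16a) and in 37.4% of all. The NRF1 motif, the ETS motif and the CHR were found only in the Pmm2 window among the 7, and in 0.971%, 3.89% and 17.9% of all windows. No member window held the E2F motif TTTCCCGC (1.07% of all), its variant TTTGGCGC (0.514%), an E-box CACGTG (7.15%), a TATA box TATAAA (13.6%) or a p53 half-site (8.36%). These matches describe letters in a window of fixed length and no more.

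Usp7 transcript read lower in every USP7-titled array than in any control. By its brighter probe set (1419920_s_at) its log2 expression was 10.54, 10.70 and 10.76 in USP7-titled arrays, against 11.69, 11.73 and 11.61 in controls. The groups did not overlap, and the gap between them was wider than either group. Group means were 10.67 ± 0.11 in USP7-titled and 11.68 ± 0.06 in control arrays (SD, n = 3 each). They differed by -1.01 (SE 0.07, limma adjusted p = 2.04e-06), which left 49.6% of the control signal. In a bulk sample fewer cells with the transcript and less transcript per cell cannot be told apart.

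The second Usp7 probe set (1419921_s_at) read 9.81, 10.05 and 10.16 in USP7-titled arrays, against 10.90, 10.99 and 11.05 in controls. Its change was -0.98 (SE 0.09, limma adjusted p = 2.41e-05), or 50.8% of control. The changes of these 2 probe sets differed by -0.04 on the log2 scale (exact permutation p = 0.7, two-sided; 95% intervals -1.17 to -0.86 and -1.19 to -0.77). In both, the first USP7-titled array read lowest of the 6. Among the 3865 probe sets that fell, counted from the furthest fall, these stood at places 362 and 413. Usp7 stayed a bright transcript: its brighter probe set exceeded 88.2% of gene probe sets in USP7-titled arrays and 95.4% in controls. Where the probes lie relative to a deleted exon was not analysed here, so the remaining signal gives no measure of how complete a deletion was.

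Hdac11, the gene that the genotype field names, is dim in these cells. Its brighter probe set read 6.04, 5.65 and 5.74 in USP7-titled arrays, against 6.66, 6.20 and 6.29 in controls, a log2 change of -0.58 (SE 0.16, limma adjusted p = 0.019). The fall did not pass when probe sets were averaged, when arrays were scaled to spikes, or without control replicate 1 (-0.44) or USP7-titled replicate 2 (-0.50); the smallest of these changes in size was -0.40, with averaged probe sets. The dimmer Hdac11 probe set was at -0.22 (SE 0.17, limma adjusted p = 0.354) with overlapping groups. The conflict between the labels is not settled by these levels.

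**Figure D1:**
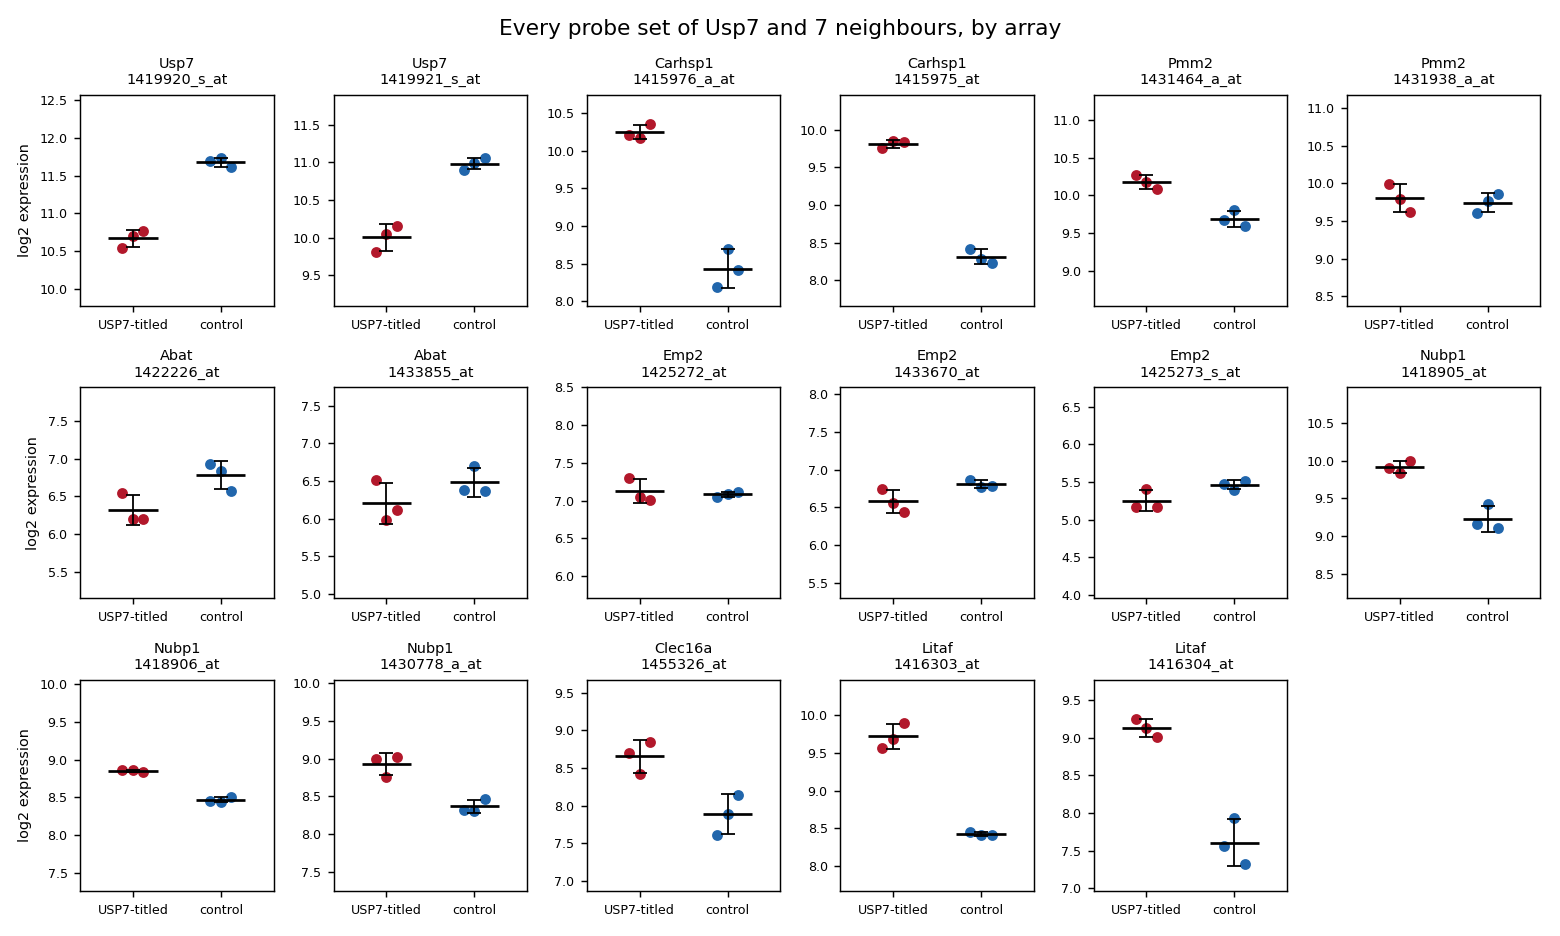
Log2 expression (vertical axis, each panel spanning the same range) of the 17 member probe sets in each of the 3 USP7-titled arrays (left, red) and 3 control arrays (right, blue); bars are the mean and SD. Both Usp7 panels are lower in USP7-titled arrays with no overlap, and both Carhsp1, all 3 Nubp1 and both Litaf panels are higher with no overlap.

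Of the 17 member probe sets 9 rose and 3 fell. Over all gene probe sets 16.2% rose and 17.1% fell, together 33.3%. The median log2 change was 0.39 over the member probe sets and -0.06 over all probe sets. The groups did not overlap in 13 of the 17, against 45.7% of all gene probe sets. By brightest probe set, 5 members rose, 2 fell and Emp2 did not pass, where 32.4% of all genes passed, 16.9% higher and 15.6% lower; the groups did not overlap in 7 of the 8 and in 45.6% of all genes. The members were picked by name with earlier results known, so their share is a description of these 8 genes and says nothing of the region.

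Carhsp1 rose the furthest of the members. It encodes a small RNA-binding protein with a cold-shock domain, known in mouse macrophages to stabilise the mRNA of tumour necrosis factor. Its brighter probe set (1415976_a_at) read 10.21, 10.17 and 10.35 in USP7-titled arrays, against 8.19, 8.70 and 8.42 in controls. Every USP7-titled array lay more than 1 log2 unit above the highest control. Group means were 10.25 ± 0.09 in USP7-titled and 8.44 ± 0.26 in control arrays (SD, n = 3 each). They differed by 1.81 (SE 0.13, limma adjusted p = 2.93e-06), or 3.51-fold. The second probe set (1415975_at) read 9.75, 9.85 and 9.83 in USP7-titled arrays, against 8.42, 8.28 and 8.23 in controls, a change of 1.50 (SE 0.10, limma adjusted p = 1.74e-06). Counted from the largest, these stood at places 218 and 340 among the 3673 probe sets that rose.

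Of 5 other cold-shock domain genes measured, 2 rose and 0 fell, a share near the 32.4% of all genes, with a median of 0.30. Ybx3 rose by 0.85 (SE 0.10) and by 0.82 by its other probe set. Ybx1 rose by 0.28 by its bright probe set, while its dim probe set was at -0.25 (limma adjusted p = 0.321). Csdc2, also on this list, was at -0.24 (limma adjusted p = 0.189) by the brightest of its 3 probe sets.

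Litaf came next. It encodes a protein of late endosomes and lysosomes with a role in protein sorting, first described as a factor induced by lipopolysaccharide and by p53. Its brighter probe set (1416303_at) read 9.56, 9.69 and 9.90 in USP7-titled arrays, against 8.45, 8.41 and 8.40 in controls. The controls lay close together, while the USP7-titled arrays spread more widely and stayed above them. The log2 change was 1.30 (SE 0.11, limma adjusted p = 9.59e-06), or 2.46-fold. Its mean was 9.72 ± 0.17 in USP7-titled and 8.42 ± 0.02 in control arrays (SD, n = 3 each). The dimmer probe set (1416304_at) read 9.24, 9.13 and 9.01 in USP7-titled arrays, against 7.56, 7.94 and 7.32 in controls, a change of 1.52 (SE 0.16, limma adjusted p = 3.69e-05). The changes of the 2 probe sets differed by -0.23 (exact permutation p = 0.4, two-sided).

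Litaf is also expressed by macrophages. In the same arrays 12 of the 19 myeloid markers counted above were higher, 6 did not pass and Cybb was lower, at -0.52. Lyz2, a lysozyme of macrophages and neutrophils, averaged 9.39 in USP7-titled and 7.74 in control arrays, and Csf1r, the receptor for macrophage colony-stimulating factor, averaged 9.55 in USP7-titled and 7.57 in control arrays. Their part in the rises of Litaf and Carhsp1 was not tested. Of 14 genes listed with Litaf, mainly of the late endosome and its sorting machinery, 2 rose and 4 fell. That is 42.9% against 32.4% of all genes. The balance became 3 higher and 1 lower when arrays were scaled to spikes. Tnf, the gene of the cytokine tumour necrosis factor, is on this list and among the fallers, at -0.32 (limma adjusted p = 0.0404). Pdcd6ip, the ALIX protein that binds ESCRT, rose by 0.64 (SE 0.07), and Chmp4b, an ESCRT-III subunit, by 0.33. Vps37a, of ESCRT-I, fell by 0.55, and Cdip1, the relative of Litaf, by 0.48 (SE 0.11, limma adjusted p = 0.00764) and by 0.66 in its other probe set. Cdip1 also lies on chromosome 16, 18 measured genes before Usp7, so the neighbourhood holds both relatives, with opposite changes.

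**Figure D2:**
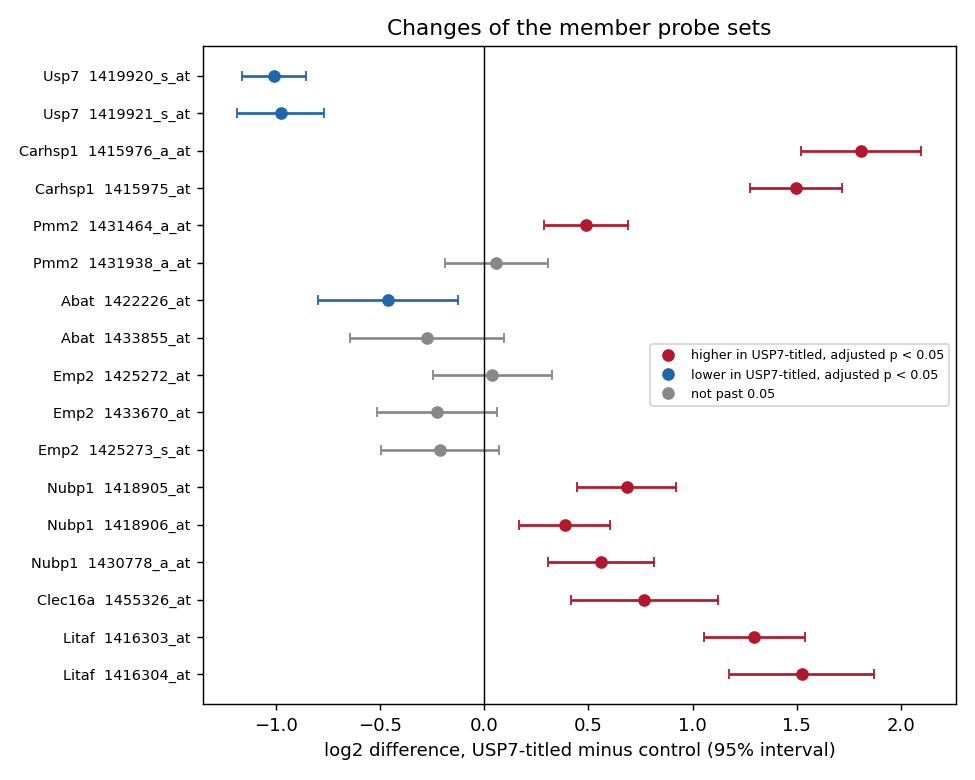
Log2 difference, USP7-titled minus control, of each member probe set with its 95% interval; colour gives the call at an adjusted p under 0.05. Carhsp1 (1.81 and 1.50) and Litaf (1.30 and 1.52) lie furthest right, both Usp7 probe sets (-1.01 and -0.98) furthest left, and the 3 Emp2 intervals cross 0.

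Nubp1 rose in all 3 of its probe sets. The gene encodes a P-loop ATPase of the scaffold on which cytosolic iron-sulphur clusters are built. Its brightest probe set (1418905_at) read 9.91, 9.84 and 10 in USP7-titled arrays, against 9.16, 9.43 and 9.11 in controls. No control array reached a USP7-titled array in any of the 3. The log2 changes were 0.68 (SE 0.11, limma adjusted p = 0.000638) for 1418905_at, 0.39 (SE 0.10, limma adjusted p = 0.0121) for 1418906_at and 0.56 (SE 0.12, limma adjusted p = 0.00355) for 1430778_a_at. In 1418906_at the arrays of each group nearly coincided, at 8.86, 8.86 and 8.84 in USP7-titled and 8.45, 8.44 and 8.504 in control arrays.

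Of 10 other genes of iron-sulphur assembly measured, 5 rose and 0 fell, where 32.4% of all genes passed, with a median of 0.34 against -0.05 over all genes; with quantile normalization 4 rose and 1 fell. Ciao2a, a targeting factor for iron-sulphur proteins, rose by 0.52 (SE 0.08, limma adjusted p = 0.000691), and Ciapin1, an electron carrier for the scaffold, by 0.47 (SE 0.11, limma adjusted p = 0.00572). Nubp2, the partner of Nubp1 in the scaffold, was at 0.44 (SE 0.08, limma adjusted p = 0.00208); it is named after its value was seen.

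Clec16a is measured by a single probe set (1455326_at). It encodes an endosomal protein that regulates mitophagy, the removal of mitochondria by autophagy, and its human locus is linked to autoimmune disease. The probe set read 8.70, 8.42 and 8.85 in USP7-titled arrays, against 7.62, 7.89 and 8.15 in controls. The groups did not overlap, but the lowest USP7-titled and the highest control array were closer to each other than the arrays within either group spread. The log2 change was 0.77 (SE 0.16, limma adjusted p = 0.00383), or 1.70-fold.

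Of 16 genes of mitophagy and endosomal tethering 0 rose and 7 fell, or 43.8% against 32.4% of all genes; scaled to spikes, 3 rose and 3 fell. Pink1, the kinase that marks damaged mitochondria, fell by 0.72 (SE 0.10, limma adjusted p = 0.000369). Vps18 of the tethering complexes fell by 0.58 (SE 0.16, limma adjusted p = 0.0174), with its other probe set at 0.09; the fall did not pass without control replicate 1 or 2 or USP7-titled replicate 2, at -0.52, -0.50 and -0.46. Rnf41, the ubiquitin ligase that binds Clec16a, was at -0.15 (limma adjusted p = 0.425).

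Pmm2 gave a split answer. It encodes the phosphomannomutase that supplies mannose-1-phosphate for N-glycosylation. Its brighter probe set (1431464_a_at) read 10.27, 10.18 and 10.09 in USP7-titled arrays, against 9.68, 9.80 and 9.59 in controls, a log2 change of 0.49 (SE 0.09, limma adjusted p = 0.00189). The other (1431938_a_at) read 9.99, 9.80 and 9.62 in USP7-titled arrays, against 9.61, 9.77 and 9.86 in controls, a change of 0.06 (SE 0.11, limma adjusted p = 0.732, 95% interval -0.19 to 0.30) with overlapping groups. Within each array the brighter minus the other probe set was higher in every USP7-titled array than in any control, by 0.43 on average (exact permutation p = 0.1, two-sided, the smallest possible).

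Tmem186, which shares the start region of Pmm2 on the opposite strand, went the other way. Its brightest probe set was at -0.40 (SE 0.11, limma adjusted p = 0.015), a dimmer one at -0.66 (SE 0.16, limma adjusted p = 0.00966) and the middle one at 0.01 (limma adjusted p = 0.964). Both genes of this pair thus had a probe set with no call. Of 17 other N-glycosylation genes 4 rose and 3 fell, or 41.2% against 32.4% of all genes, and 6 rose and 2 fell when scaled to spikes. Pmm1, the second phosphomannomutase gene, rose by 1.39 (SE 0.16) and 1.30, further than Pmm2. Dpagt1, which starts the lipid-linked sugar chain, rose by 0.90, while the mannosyltransferases Alg2 and Alg1 fell by 0.92 and 0.77; a dim Alg2 probe set was at 0.02.

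Abat was dim and fell slightly. It encodes the mitochondrial transaminase that breaks down the neurotransmitter GABA. The brighter probe set (1422226_at) read 6.54, 6.20 and 6.21 in USP7-titled arrays, against 6.92, 6.84 and 6.57 in controls; the groups did not overlap, though the highest USP7-titled array nearly met the lowest control. The log2 change was -0.46 (SE 0.15, limma adjusted p = 0.0383), and it did not pass in 8 of 14 alternative fits. Without control replicate 1 it was -0.39, without control replicate 2 -0.43, and without USP7-titled replicate 2 or 3 it was -0.40 (limma adjusted p = 0.0973 to 0.146). The dimmer probe set was at -0.28 (SE 0.17, limma adjusted p = 0.24) with overlapping groups. Of 8 genes listed with Abat 0 passed, where 32.4% of all genes passed, although 2 rose when scaled to spikes. The list holds genes for GABA synthesis, transport and receptors, and succinyl-CoA ligase subunits. The nearest as deposited was Suclg1, a succinyl-CoA ligase subunit, at 0.24 (limma adjusted p = 0.0704).

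Emp2 did not pass in any of its 3 probe sets. The gene encodes a tetraspan membrane protein of the PMP22 family, best known from epithelium. Its brightest probe set (1425272_at) read 7.30, 7.05 and 7.01 in USP7-titled arrays, against 7.04, 7.09 and 7.11 in controls, a difference of 0.04 (SE 0.13, limma adjusted p = 0.855, 95% interval -0.25 to 0.32). The dimmer probe sets were at -0.23 (SE 0.13, limma adjusted p = 0.216) and -0.21 (SE 0.13, limma adjusted p = 0.242). In 1433670_at the groups did not overlap, at 6.44 to 6.74 in USP7-titled and 6.77 to 6.86 in control arrays.

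Of 6 other measured genes of its family 4 rose and 0 fell, where 16.9% of all genes rose and 15.6% fell. Nkg7, a granule protein of cytotoxic lymphocytes, rose by 2.76 (SE 0.07) and Perp, a membrane protein induced by p53, by 1.52 (SE 0.21). Emp1 rose by 1.39 (SE 0.15). Nkg7 is also a marker of cytotoxic cells; of 6 other CD8 T and NK cell markers 0 passed, and their summed linear signal was 816 to 1040 in USP7-titled and 943 to 1080 in control arrays.

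The change of Usp7 was set against those of its neighbours within each array. The brightest Usp7 probe set minus the mean of the brightest probe sets of the other 7 members was 1.61, 1.90 and 1.85 in USP7-titled arrays, against 3.54, 3.42 and 3.42 in controls. The difference of -1.67 had the smallest p that 3 against 3 arrays allow (exact permutation p = 0.1, two-sided). The same held against each of the 7 singly, from -0.55 against Abat to -2.82 against Carhsp1. The mean of the other 7 was 8.93, 8.79 and 8.91 in USP7-titled arrays, against 8.15, 8.31 and 8.19 in controls, 0.66 higher (exact permutation p = 0.1, two-sided). Because the members were picked with earlier results of these data known, these contrasts describe the chosen genes and say nothing of the region.

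**Figure D3:**
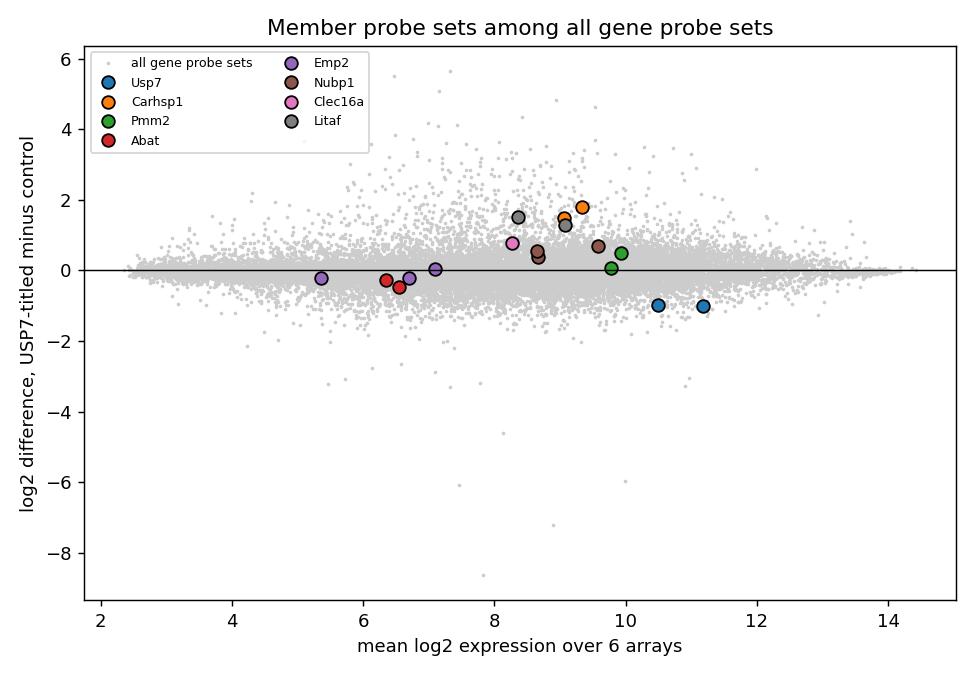
Log2 difference, USP7-titled minus control, against the mean log2 expression over 6 arrays, for all 22626 gene probe sets (grey) and the 17 member probe sets (colours). The Usp7 points (-1.01 and -0.98) lie below most bright probe sets, and those of Carhsp1 (1.81 and 1.50) and Litaf (1.30 and 1.52) above most of the cloud.

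The wider neighbourhood gives the members their setting. Of the 30 measured genes on each side of Usp7 in gene order, 53 are no members. Of these 53 genes 16 passed, or 30.2%, against 32.4% of all genes measured. Without control replicate 3 the count was 9, where 6754 of all 22626 gene probe sets passed. On the whole of chromosome 16 the share was 32.1% of 414 genes, which placed it 14th of the 20 chromosomes compared. Passing genes near Usp7 were mostly lower, 13 against 3 higher, where 15.6% of all genes were lower and 16.9% higher. With quantile normalization 12 were lower and 2 higher, and with centring on array medians 9 were lower and 3 higher. Scaled to spikes, 6 were higher and 3 lower. Among these scalings only the spikes turned the direction. They also made 72.7% of all passing probe sets higher, against 48.7% as deposited. The median change of the 53 was -0.11, against -0.05 over all genes; the median size without sign was 0.23 against 0.21.

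Nearest to Usp7, among the 12 measured genes between Abat and Litaf that are no members, 1 rose and 4 fell, or 41.7% against 32.4% of all genes. The riser was Rpl39l, a copy of a ribosomal protein gene best known from testis, which read 7.47, 7.71 and 7.89 in USP7-titled arrays, against 6.15, 6.18 and 6.48 in controls. Its change of 1.42 (SE 0.15, limma adjusted p = 5.14e-05) was next in size to that of Carhsp1 among the genes in this stretch. Apart from Tmem186, the fallers were Tvp23a, which overlaps Nubp1 (-0.36, limma adjusted p = 0.044), and the sperm protamine genes Prm1 and Prm3. Prm1 was at -0.51 (SE 0.13, limma adjusted p = 0.013) by its brightest probe set, which averaged 9.76 in controls. It did not pass in the 2 dim ones, which averaged 4.75 and 4.30 in controls. Prm3, at 6.31 in controls, differed by -0.38 (limma adjusted p = 0.0498). The immune regulators in this stretch did not pass: Socs1, the inhibitor of cytokine signalling, was at -0.07 (limma adjusted p = 0.678) and Ciita, the activator of MHC class II genes, at -0.11 (limma adjusted p = 0.516).

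Farther out, on the side before Usp7, the mitochondrial import subunit Pam16 rose by 0.47 (SE 0.06, limma adjusted p = 0.000149), while Eef2kmt, a methyltransferase of elongation factor 2, fell by 0.87 (SE 0.13) and its neighbour Alg1 by 0.77 (SE 0.11). On the far side Ntan1, an amidohydrolase of the N-degron pathway, rose by 0.29 (SE 0.09, limma adjusted p = 0.0336) as the last gene counted; without control replicate 1 or 3, or USP7-titled replicate 1 or 3, it was at 0.28, 0.25, 0.23 and 0.30 and did not pass. No gene among the 53 fell as far as Usp7, the nearest being Eef2kmt. Changes of either sign stood beside genes with none: Grin2a, the measured gene directly after Usp7, was at 0.04 and Carhsp1, directly before it, at 1.81.

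**Figure D4:**
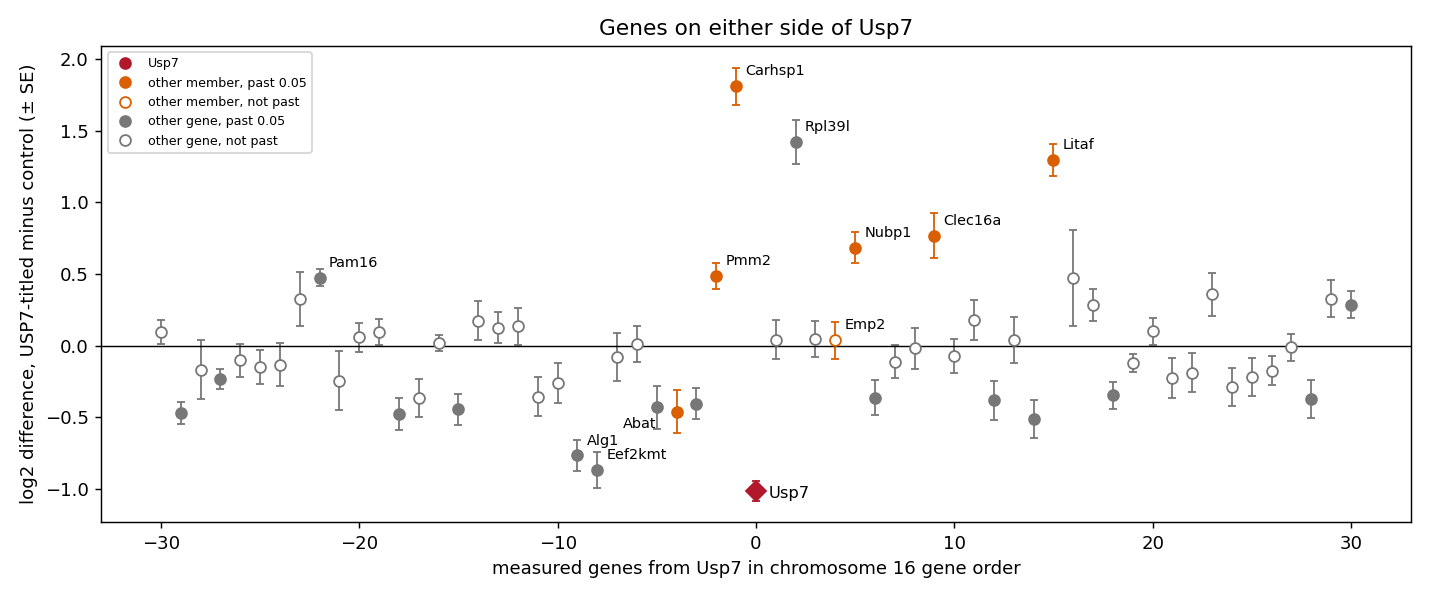
Log2 difference, USP7-titled minus control, with its SE, of the brightest probe set of each measured gene by its place from Usp7 in chromosome 16 gene order. Filled points passed an adjusted p of 0.05; Usp7 (-1.01) is the lowest point and Carhsp1 (1.81), Rpl39l (1.42) and Litaf (1.30) the highest, and the points nearest Usp7 lie on both sides of 0.

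Among the known substrates and partners of the USP7 protein, 33 were measured, of which 8 rose and 8 fell, or 48.5% against 32.4% of all genes, with a median change of -0.01. Trp53, the p53 gene, was not analysed here. Scaled to spikes, 11 of the 33 rose and 6 fell. The furthest rises were Ccna2 (3.29, SE 0.11) and Nek2 (2.67, SE 0.20), a cyclin and a kinase of the dividing cell. The furthest falls were Foxp3 (-5.98) and Gata1 (-0.73, SE 0.13). Mdm2, whose protein USP7 stabilises, was at 0.41 (SE 0.07, limma adjusted p = 0.00146). These are transcript levels, and the protein changes that a deubiquitinase makes are not measured by them.

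Profiles like that of Usp7 were sought over the 6 arrays, each value taken minus the control mean of its gene, with the root mean square difference as the measure. The 5 nearest were Osgin1 (0.04), Lad1 (0.04), Pmel (0.06), 6820431F20Rik (0.06) and Sesn1 (0.07). None of them is on chromosome 16, which holds only 414 of the 12393 genes. For Carhsp1 the nearest were Pole, Sgo1 and Bub1b (0.11 to 0.12), and for Litaf they were Stard4, Cyp2s1 and Cenpv (0.03 to 0.07). Nubp1 was nearest to Knstrn, Brip1os and Itgb1 (0.06 to 0.07), and Clec16a to Sh3rf1, Pfkp and Capn10 (0.11 to 0.12). Pmm2 was nearest to Ppp1r11, Ifi202b and Emc8 (0.04 to 0.05), and Abat to Serpina1b, Jrk and Hspb1 (0.05 to 0.07). The measure takes in the size of the group difference as well as the spread within groups.

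The scale of the arrays shifted every member. Scaled to the 18 hybridization spike probe sets, the median of all probe sets rose by 0.16 on the log2 scale. On that scale Usp7 was at -0.85 (SE 0.09, limma adjusted p = 2.87e-05), Carhsp1 at 1.97, Litaf at 1.46, Clec16a at 0.93, Nubp1 at 0.84 and Pmm2 at 0.65, all past the threshold. Abat was at -0.30 (limma adjusted p = 0.127) and Emp2 at 0.20 (limma adjusted p = 0.299).

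**Figure D5:**
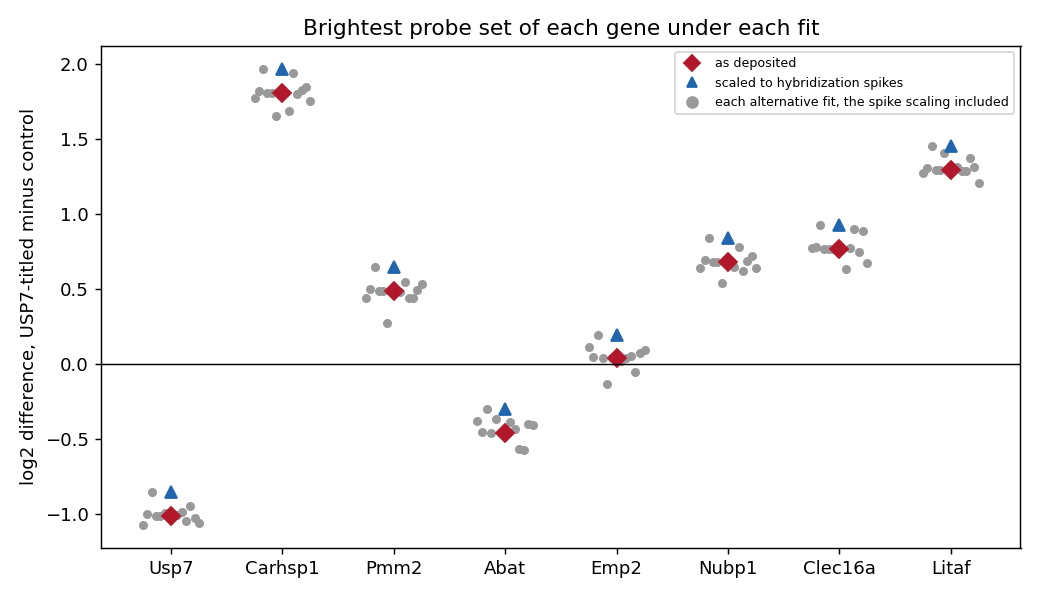
Log2 difference, USP7-titled minus control, of the brightest probe set of each member as deposited (red diamonds), scaled to hybridization spikes (blue triangles) and in each alternative fit (grey). Usp7 stays below 0 and Carhsp1, Pmm2, Nubp1, Clec16a and Litaf above it in every fit, while Emp2 lies on both sides of 0.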

How the data were processed

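Per the labels' protocols, total RNA was amplified by a MessageAmp Premier kit with a biotin label. The authors deposited 1 log2 value for each probe set and array; how they summarised and normalized them is not given in the sources used here. Their log base was inferred from the range of values, 2.21 to 14.47 over gene probe sets. If arrays were normalized to each other, a shift in overall RNA content would not show, and background compresses changes at low signal.

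The table holds 22690 probe sets, 64 of them array controls that were not tested. The platform annotation gave 20380 of the remaining 22626 a single symbol, 691 several and 1555 none. Of the single-symbol probe sets 20351 matched the mouse reference gene table (GRCm38.p6), which served for gene order; 0 symbols differed. Because the arrays name no build, gene coordinates are not given; promoter windows carry the build of their own table.

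Groups came from the titles. All 22626 probe sets entered 1 fit in limma (version 3.58.1, under R 4.3.3), moderated by eBayes with its trend option; tests were two-sided, adjusted by Benjamini-Hochberg, at a threshold of 0.05; every adjusted p is from that fit unless named otherwise. Within-array differences were compared by exact permutation of arrays (two-sided); with 3 against 3 arrays p cannot go below 0.1. A gene outside the members is represented by its brightest probe set over all 6 arrays. The fit was tested on simulated data. Array number, 3 per group, limits the precision. The members, lists and rules were chosen with earlier results of these data known. Named neighbours are the largest changes past the threshold among the 30 measured genes on each side of Usp7, up to 4 in each direction; named relatives are up to 2 in each direction per list, and where no member passed, the smallest p. Some genes were named outside these rules, after their values were seen. They are Tmem186, Tvp23a, Prm3, Grin2a, Socs1, Ciita, Csdc2, Nubp2, Rnf41, Mdm2, Emp1, Tnf, Hdac11 and marker genes. Alternatives were other scalings, filters, probe set summaries, a replicate block, a stricter threshold and leaving out each array.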

Additional observations from a re-analysis of the deposited data

How the results depend on the processing

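Usp7 kept its direction and its call in all 15 alternatives, with values of -1.07 to -0.85 on the log2 scale, and so did the brightest probe sets of Carhsp1, Litaf, Nubp1, Clec16a and Pmm2. Abat did not pass in 8 of 14. Without the dimmest 40% of probe sets, Abat and Emp2 were not tested. Of the 12 member probe sets left 11 passed, where 6663 of all 13576 left passed. The brightest Emp2 probe set, at 0.04, had a counterpart of -0.13 when probe sets were averaged and ran from -0.054 to 0.0929 when single arrays were left out; the other Pmm2 probe set (1431938_a_at) ran from -0.0344 to 0.148 when single arrays were left out. None of these passed. The count of member probe sets past the threshold was 7 of 8 with the brightest probe set of each gene and 6 of 8 with averaged probe sets, where fewer features are tested. Over all features it was 4078 and 4278 of 12393 in those fits, and 4913 of 22626 at a threshold of 0.01. Of the 53 other genes near Usp7, 9 passed when scaled to spikes, where 7095 of all 22626 gene probe sets passed. At a threshold of 0.01 it was 7 of the 53, beside 4913 of the 22626. With single arrays left out it was 9 to 13 of the 53, beside 5849 to 7356 of all. The lowest count of the 53 came without control replicate 3, where 6754 of all passed. In each of these fits the share of the 53 was below that of all probe sets. The cause was not tested. With 10 measured genes on each side 6 of 14 passed, or 42.9%. With 60, or the 32 there are before Usp7, 26 of 85 passed, or 30.6%. Over all genes it was 32.4%. Scaled to spikes, 72.7% of called probe sets were higher, against 48.7% as deposited. With the replicate number as a block, Usp7 was at -1.01 (limma adjusted p = 7.94e-06), 12 member probe sets and 7495 of all passed, and 12 of the 53; same-numbered arrays correlated at 0.07, -0.05 and 0.09 in their deviations, so the numbers were not taken as pairs. Probe sets were counted for 51 genes that are no members: those named by rule or as nearest profiles, with Tmem186 and Tvp23a. Of these, 25 have several probe sets and 6 a probe set of opposite sign. Hdac11, the other genes named outside the rules and the other marker genes were not in this count. Dim probe sets such as those of Abat and Emp2 leave little room above background.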
